A study of Mus musculus with 12 samples.

Results

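The genes described here are 47 mouse genes of DNA replication and of the step from G1 into S phase. They were listed by name for their known roles in licensing of origins, at the replication fork, in nucleotide supply and in G1/S control. The rule uses no measured value, but the list was drawn up with earlier results of these data known. The genes are 47 of 51707 genes in the annotation. All 47 passed the low-count filter, which kept 14711 genes for testing.

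The RNA came from 12 libraries of a mouse line labelled MLO-Y4, an osteocyte-like line, grown on type I collagen at 0.15 mg/mL. There were 4 groups of 3 libraries: cells with and without BIGH3, each undifferentiated or differentiated. Treated cells received recombinant human BIGH3, the secreted matrix protein of the TGFBI gene, and differentiated cells were kept in medium with serum at 10%, ascorbic acid at 50 µg/mL and β-glycerophosphate at 4 mM. The labels name no differentiation medium for the undifferentiated groups, so differentiation and a direct effect of the medium cannot be told apart. The sources used here do not give the BIGH3 dose, its duration, the control vehicle or whether libraries kept strand. No label says whether libraries of 1 group are separate cultures, and p-values therefore cover the spread among the libraries sequenced, which may be technical.

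Before S phase, the origin recognition complex with CDC6 and CDT1 loads the MCM helicase ring onto DNA, and geminin blocks CDT1 so that origins are not licensed again. At the fork, CDC45 and GINS activate the ring, primase and the DNA polymerases copy both strands, and the PCNA clamp, loaded by RFC, holds the polymerases on DNA. Genes of this machinery are transcribed mainly when cells leave G1, under E2F transcription factors, and cells that stop dividing as they mature lower them together.

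Levels are given in CPM, the depth-normalised estimated read count after TMM scaling between libraries, or in TPM where genes are compared with each other, since TPM also divides by transcript length. Differences are log2 fold changes with standard errors, and a gene was called at an adjusted p below 0.05 over all genes tested (edgeR quasi-likelihood test, Benjamini-Hochberg). Depth was 19014492 to 27612155 estimated reads per library. Of 13 osteocyte markers, Dmp1 (35.6 to 95.3 CPM), Phex (7.21 to 87.3 CPM), Pdpn (183 to 294 CPM) and Gja1 (115 to 213 CPM) were present in every library, while Sost and Mepe stayed below 1 CPM and Fgf23 had no read, so defining markers of mature osteocytes were at or near 0. Liver transcripts stood apart in undifferentiated control 2, differentiated control 2 and differentiated BIGH3 3, with 115, 52.3 and 78.1 CPM summed over 13 hepatocyte markers against 4.81 to 26.1 CPM in the other 9 libraries. Results that rest on these libraries are given without them as well.

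Promoter windows of the 4 genes that rose most with BIGH3 in differentiated cells are shown for their motif matches. They run from 250 bases before to 50 bases after the start, and sequence and coordinates are those of RefSeq on GRCm38.p6: Tk1 at chr11:117825965-117826264 (minus strand), Clspn at chr4:126556730-126557029, Orc1 at chr4:108579204-108579503 and Mcm5 at chr8:75109259-75109558 (plus strand). Capitals mark matches, on either strand, to an E2F word (TTTCCCGC, TTTGGCGC, TTTCGCGC or TTTGCCGC) or to the CCAAT box bound by NF-Y.
Tk1: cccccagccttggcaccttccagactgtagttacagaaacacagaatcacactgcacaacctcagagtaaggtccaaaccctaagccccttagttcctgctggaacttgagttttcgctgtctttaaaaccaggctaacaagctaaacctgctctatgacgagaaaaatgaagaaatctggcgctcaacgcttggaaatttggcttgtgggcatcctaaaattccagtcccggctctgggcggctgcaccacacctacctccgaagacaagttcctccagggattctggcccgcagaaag
Clspn: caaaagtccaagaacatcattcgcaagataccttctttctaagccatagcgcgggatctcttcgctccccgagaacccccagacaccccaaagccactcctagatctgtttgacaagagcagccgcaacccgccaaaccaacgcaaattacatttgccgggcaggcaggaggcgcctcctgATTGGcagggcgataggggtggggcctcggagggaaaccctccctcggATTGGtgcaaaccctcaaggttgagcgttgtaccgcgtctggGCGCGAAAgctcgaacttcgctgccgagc
Orc1: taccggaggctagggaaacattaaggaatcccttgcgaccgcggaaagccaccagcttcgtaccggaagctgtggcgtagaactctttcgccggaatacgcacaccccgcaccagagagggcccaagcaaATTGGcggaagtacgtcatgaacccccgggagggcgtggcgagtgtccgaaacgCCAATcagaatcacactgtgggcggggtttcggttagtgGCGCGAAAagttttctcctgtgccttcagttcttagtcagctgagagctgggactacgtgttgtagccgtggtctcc
Mcm5: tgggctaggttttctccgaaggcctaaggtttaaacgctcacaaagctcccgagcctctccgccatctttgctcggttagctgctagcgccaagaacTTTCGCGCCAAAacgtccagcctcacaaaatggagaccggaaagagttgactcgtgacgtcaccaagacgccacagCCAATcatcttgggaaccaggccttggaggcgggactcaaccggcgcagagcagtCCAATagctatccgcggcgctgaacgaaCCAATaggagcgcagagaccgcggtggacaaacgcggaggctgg
The Clspn and Orc1 windows each hold 1 E2F word and 2 CCAAT boxes. In Mcm5, 2 E2F words on opposite strands overlap and 3 CCAAT boxes follow, while the Tk1 window holds neither motif, which says only that these letters are absent from it. The starts of the Tk1, Clspn and Mcm5 windows lie 78, 45 and 67 bases from the GENCODE M21 start of the gene's most abundant coding transcript, and that of Orc1 coincides with it.

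In differentiated cells, all of the replication and G1/S genes were higher with BIGH3. Of the 47 members, 47 were called higher and 0 lower, beside 22.6% of all genes called higher. Their median log2 fold change was 1.22 (2.33-fold) beside -0.01 over all genes, and 31 rose over 2-fold, which 6.82% of all genes did. The 3 treated libraries lay above the 3 controls for 46 members, beside 27.3% of all genes, with Rrm1 as the exception. In undifferentiated cells no member was called by edgeR, DESeq2 or limma, and the median log2 fold change was 0.03. A bulk library cannot tell fewer cells in S phase from less RNA per cell, and this holds for every level below.

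**Figure D1:**
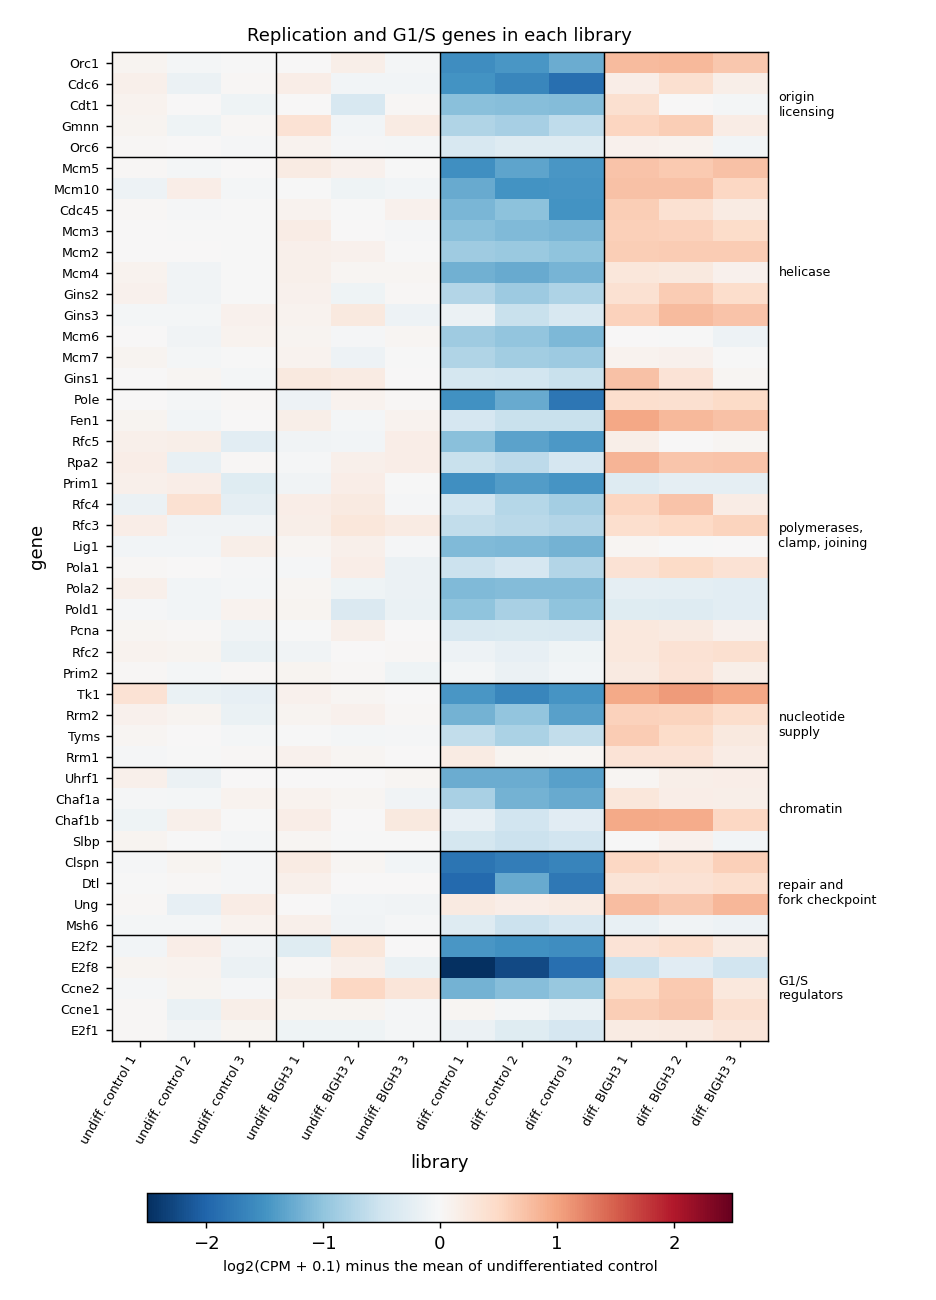
Heat map of the 47 genes (vertical axis, by role) in the 12 libraries (horizontal axis), coloured by log2(CPM + 0.1) minus the mean of the undifferentiated controls. The differentiated controls are blue for most genes, with library medians of -1.003 to -0.88, and the differentiated BIGH3 libraries lie at 0.22 to 0.39.

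Among the 5 origin licensing genes, Orc1 moved most. Orc1, the large ATPase subunit of the origin recognition complex, stood at 4.64, 4.29 and 4.40 CPM in undifferentiated controls, at 4.50, 4.91 and 4.27 CPM with BIGH3, at 1.45, 1.56 and 1.83 CPM in differentiated controls and at 7.80, 7.86 and 7.16 CPM in differentiated BIGH3 libraries. The differentiated controls were the lowest libraries and the differentiated BIGH3 libraries the highest, without overlap. With BIGH3 it rose 4.72-fold in differentiated cells (log2 fold change 2.24 ± 0.16, adjusted p = 2.42e-10). Orc6, the smallest subunit of the same complex, stood at 38.1, 37.8 and 36.9 CPM and, with BIGH3, at 39.98, 36.8 and 36.5 CPM in undifferentiated cells. In differentiated cells it went from 28.4, 30.0 and 30.2 CPM to 40.4, 40 and 36.0 CPM, a log2 fold change of 0.39 ± 0.07 (adjusted p = 5.69e-05). Its differentiated controls lay below all other libraries, and the other 3 groups overlapped. Orc6 thus moved by less than Orc1 in both directions, although its TPM was higher (33.8 against 0.847 TPM in differentiated controls). Cdc6 and Cdt1, which load the helicase with that complex, rose by 1.94 ± 0.14 and 1.22 ± 0.14, and Gmnn, the inhibitor of CDT1, by 1.22 ± 0.14. The ratio of Cdt1 to Gmnn in TPM was 0.339 to 0.363 in differentiated controls and 0.311 to 0.417 with BIGH3, so the groups overlapped.

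All 11 helicase genes rose in differentiated cells, with a median log2 fold change of 1.43. Mcm5, a subunit of the ring, stood at 23.0, 21.7 and 22.4 CPM in undifferentiated controls, at 25.8, 24.1 and 22.3 CPM with BIGH3, at 7.65, 8.86 and 8.10 CPM in differentiated controls and at 36.8, 35.2 and 37.2 CPM with BIGH3. Each differentiated BIGH3 library exceeded every library of the other groups, and the rise was 4.44-fold (2.15 ± 0.08, adjusted p = 9.67e-15). The other 5 ring subunits rose by less, by 1.64 ± 0.06 (Mcm3), 1.58 ± 0.06 (Mcm2), 1.43 ± 0.07 (Mcm4), 0.95 ± 0.06 (Mcm6) and 0.91 ± 0.06 (Mcm7). Although the ring holds its subunits in equal number, their transcripts did not move equally. The most abundant subunit exceeded Mcm5, the least abundant, 5.14-fold in mean TPM in undifferentiated controls, 8.40-fold in differentiated controls and 3.78-fold in differentiated BIGH3 cells. The most abundant subunit was Mcm3 in differentiated BIGH3 cells and Mcm7 in the other 3 groups.

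Factors that join or activate the ring rose as well. Mcm10, needed to start unwinding, rose by 2.09 ± 0.11, and Cdc45, which binds the active ring, by 1.64 ± 0.13. Gins2 and Gins3, subunits of the GINS complex that binds with CDC45, rose by 1.30 ± 0.10 and 1.06 ± 0.14. Gins1, another GINS subunit and the helicase gene that moved least, stood at 5.16, 5.31 and 4.99 CPM and, with BIGH3, at 6.16, 5.94 and 5.22 CPM in undifferentiated cells. In differentiated cells it stood at 3.76, 3.72 and 3.48 CPM in controls and at 8.62, 6.58 and 5.32 CPM with BIGH3. The treated libraries spread widely but all lay above the controls (0.91 ± 0.16, adjusted p = 0.000110).

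Of the 14 genes for polymerases, clamp and strand joining, Pole rose most in differentiated cells. Pole, the catalytic subunit of the leading strand polymerase, stood at 13.0, 12.4 and 13.2 CPM in undifferentiated controls and at 11.8, 13.7 and 13.1 CPM with BIGH3. It stood at 4.46, 5.28 and 3.62 CPM in differentiated controls and at 17.2, 16.9 and 18.02 CPM with BIGH3. The differentiated groups lay below and above all undifferentiated libraries (3.90-fold, 1.96 ± 0.12, adjusted p = 1.36e-11). Pold1, the catalytic subunit of the lagging strand polymerase, rose by 0.65 ± 0.11, and in differentiated BIGH3 cells it stayed below the undifferentiated controls (12.3 ± 0.31 against 15.1 ± 0.90 CPM, SD, n = 3). These 2 levels count all Pold1 transcripts, of which protein-coding ones held 95.7% and 88.9% of reads.

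Primase makes the RNA primer that polymerase alpha extends, and its subunits differed. Prim1, the catalytic subunit, rose by 1.21 ± 0.11 with BIGH3 in differentiated cells. Prim2, the large subunit, stood at 44.8, 42.4 and 45.2 CPM in undifferentiated controls, at 46.3, 45.3 and 41.2 CPM with BIGH3, at 42.5, 39.7 and 42.2 CPM in differentiated controls and at 51.6, 55.6 and 48.6 CPM with BIGH3. Only the differentiated BIGH3 libraries of Prim2 stood apart (0.32 ± 0.07, adjusted p = 0.000383). Pola1 and Pola2, the catalytic and second subunits of polymerase alpha, rose by 0.96 ± 0.09 and 0.85 ± 0.08.

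Pcna, the sliding clamp, had the highest mean TPM of the 47 genes and a small fold change. It stood at 130, 129 and 118 CPM in undifferentiated controls, at 125, 136 and 126 CPM with BIGH3, at 94.6, 96.1 and 94.8 CPM in differentiated controls and at 150, 146 and 135 CPM with BIGH3. The differentiated controls were the lowest libraries, and differentiated BIGH3 3 lay below undifferentiated BIGH3 2 (0.60 ± 0.05, adjusted p = 1.04e-08). The clamp loader genes Rfc3, Rfc4 and Rfc5 rose by 1.17 ± 0.08, 1.20 ± 0.17 and 1.33 ± 0.12, and Rfc2 by 0.49 ± 0.08. Fen1, the flap nuclease, and Lig1, the ligase, which finish the fragments of the lagging strand, rose by 1.36 ± 0.09 and 1.16 ± 0.07. Rpa2, a subunit of the single-strand binding protein, rose by 1.30 ± 0.10.

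**Figure D2:**
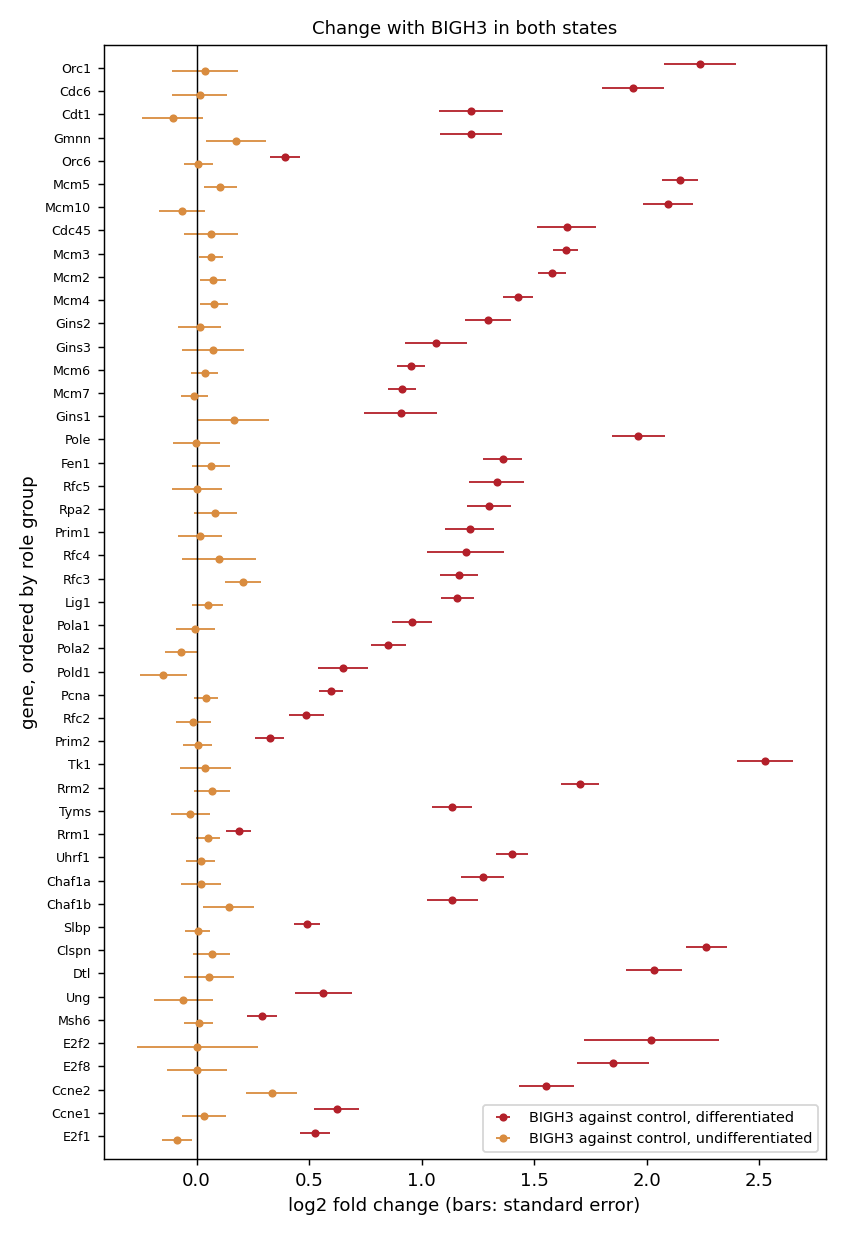
Log2 fold change of each gene with BIGH3 (horizontal axis, bars are standard errors; genes on the vertical axis by role) in differentiated (red) and undifferentiated (orange) cells. The red points run from 0.19 (Rrm1) to 2.53 (Tk1) and the orange points from -0.15 (Pold1) to 0.33 (Ccne2).

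The widest spread within a role was among the 4 nucleotide supply genes. Tk1, the S phase thymidine kinase (GRCm38 chromosome 11, 117815526 to 117826092, minus strand), had the largest rise of the 47 in differentiated cells. It stood at 26.7, 18.6 and 17.9 CPM in undifferentiated controls, at 22.3, 21.4 and 20.8 CPM with BIGH3, at 7.48, 6.65 and 7.37 CPM in differentiated controls and at 40.2, 43.3 and 40.6 CPM with BIGH3. The differentiated BIGH3 libraries lay above all others and the differentiated controls below (5.76-fold, 2.53 ± 0.12, adjusted p = 2.17e-11). Afmid, which overlaps Tk1 on the opposite strand, rose by 1.24 on the log2 scale. If strand was not used, reads from sequence that transcripts of the 2 genes share cannot be told apart. How much they share was not tested.

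Ribonucleotide reductase, which makes deoxynucleotides, is built from RRM1 and RRM2, and their transcripts moved differently. Rrm2, the subunit known to vary over the cell cycle, stood at 56.7, 55.3 and 46.7 CPM in undifferentiated controls, at 55.6, 56.6 and 54.1 CPM with BIGH3, at 23.3, 26.4 and 20.4 CPM in differentiated controls and at 78.2, 78.1 and 72.0 CPM with BIGH3. Its differentiated groups lay on either side of all undifferentiated libraries (3.26-fold, 1.70 ± 0.08, adjusted p = 2.32e-12). Rrm1, the catalytic large subunit (chromosome 7, 102441695 to 102469771), stood at 163, 164 and 169 CPM, at 178, 170 and 165 CPM, at 190, 172 and 171 CPM and at 210, 208 and 188 CPM in the same groups. Here differentiated BIGH3 3 lay below differentiated control 1, and the rise was 1.14-fold (0.19 ± 0.05, adjusted p = 0.00758). This call was lost without differentiated control 2 (adjusted p = 0.0576), differentiated control 3 (0.0581), differentiated BIGH3 1 (0.0533) or differentiated BIGH3 2 (0.0501), and in every fit that takes transcript length into account (0.262 to 0.340). The ratio of Rrm2 to Rrm1 in TPM was 0.163 to 0.212 in differentiated controls, 0.498 to 0.583 with BIGH3 and 0.404 to 0.508 in undifferentiated libraries, so the differentiated controls stood apart. This ratio counts all transcripts of each gene. In differentiated controls, protein-coding transcripts held 49.7 of the 79.7 mean TPM of Rrm1 and 14.1 of the 14.4 of Rrm2. Tyms, which makes thymidylate, rose by 1.14 ± 0.09.

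The 4 chromatin genes rose in differentiated cells. Uhrf1, which brings the maintenance DNA methyltransferase to newly copied DNA, stood at 63.0, 51.9 and 58.1 CPM in undifferentiated controls, at 57.5, 58.0 and 59.6 CPM with BIGH3, at 24.2, 24.2 and 22.4 CPM in differentiated controls and at 59.3, 63.6 and 64.4 CPM with BIGH3. The differentiated controls were low, and the other 3 groups overlapped (1.40 ± 0.07, adjusted p = 8.45e-13). Slbp, which binds the stem-loop of histone mRNAs, stood at 66.5, 62.5 and 61.0 CPM in undifferentiated controls and at 65.2, 63.0 and 62.4 CPM with BIGH3. In differentiated cells Slbp went from 46.7, 43.7 and 45.5 CPM to 63.1, 67.9 and 60.2 CPM with BIGH3, where they overlapped the undifferentiated libraries (0.49 ± 0.06, adjusted p = 4.95e-07). Chaf1a and Chaf1b, subunits of the chromatin assembly factor that places histones behind the fork, rose by 1.27 ± 0.10 and 1.14 ± 0.11.

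Among the 4 genes of repair and the fork checkpoint, Clspn and Dtl rose far more than Ung and Msh6. Clspn, which links stalled forks to the kinase CHK1, stood at 19.9, 21.5 and 19.9 CPM in undifferentiated controls, at 23.5, 21.1 and 19.6 CPM with BIGH3, at 5.66, 6.08 and 6.41 CPM in differentiated controls and at 29.4, 27.2 and 30.7 CPM with BIGH3. All differentiated BIGH3 libraries lay above all others (4.81-fold, 2.27 ± 0.09, adjusted p = 3.84e-14). Dtl, a ubiquitin ligase receptor that marks CDT1 for degradation at PCNA, rose by 2.03 ± 0.12. Msh6, of mismatch repair, stood at 66.1, 66.3 and 72.2 CPM in undifferentiated controls and at 74.7, 64.3 and 67.0 CPM with BIGH3. In differentiated cells it went from 54.2, 46.96 and 51.1 CPM to 59.9, 64.4 and 62.2 CPM (0.29 ± 0.07, adjusted p = 0.00107). Msh6 did not reach the lowest undifferentiated library except in differentiated BIGH3 2. Ung, which removes uracil from DNA, rose by 0.56 ± 0.13.

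The 5 G1/S regulators all rose in differentiated cells, by 0.53 (E2f1) to 2.02 (E2f2). E2f2, an activating E2F factor, stood at 1.45, 1.72 and 1.43 CPM in undifferentiated controls, at 1.22, 1.87 and 1.53 CPM with BIGH3, at 0.496, 0.471 and 0.458 CPM in differentiated controls and at 1.96, 2.09 and 1.79 CPM with BIGH3. These levels rest on 10 to 43 estimated reads per library, the fewest of the members named with all values, and its standard error was the largest (2.02 ± 0.30, adjusted p = 1.25e-05). E2f1, the founding member of the family, stood at 50.7, 46.3 and 51.9 CPM in undifferentiated controls, at 45.8, 46.3 and 48.0 CPM with BIGH3, at 44.6, 40.3 and 37.1 CPM in differentiated controls and at 57.4, 57.8 and 60.9 CPM with BIGH3. Its differentiated groups lay on either side of the undifferentiated libraries but close to them (0.53 ± 0.07, adjusted p = 1.71e-06). E2f8, a repressor of E2F targets, rose by 1.85 ± 0.16, and the ratio of E2f1 to E2f8 in TPM was 12.4 to 26.3 in differentiated controls, 6.09 to 7.67 with BIGH3 and 3.77 to 5.01 in undifferentiated libraries.

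Cyclins E1 and E2 both activate CDK2 for entry into S phase. Ccne2 stood at 10.6, 11.4 and 10.5 CPM in undifferentiated controls, at 12.1, 15.5 and 13.4 CPM with BIGH3, at 4.71, 5.14 and 5.54 CPM in differentiated controls and at 15.1, 17.1 and 13.0 CPM with BIGH3. The differentiated controls stood alone at the low end (1.56 ± 0.12, adjusted p = 1.40e-09). Ccne1 stood at 13.4, 11.7 and 14.4 CPM, at 13.9, 13.8 and 12.8 CPM, at 13.6, 12.7 and 11.7 CPM and at 20.3, 21.0 and 17.3 CPM in the same groups, so its differentiated controls did not stand below the undifferentiated libraries. Its rise of 0.62 ± 0.10 (adjusted p = 2.81e-05) was not called in TPM (adjusted p = 0.0674 to 0.0768) or with length offsets (0.0679). The ratio of Ccne1 to Ccne2 in TPM was 3.04 to 4.996 in differentiated controls and 1.77 to 1.94 with BIGH3, without overlap.

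**Figure D3:**
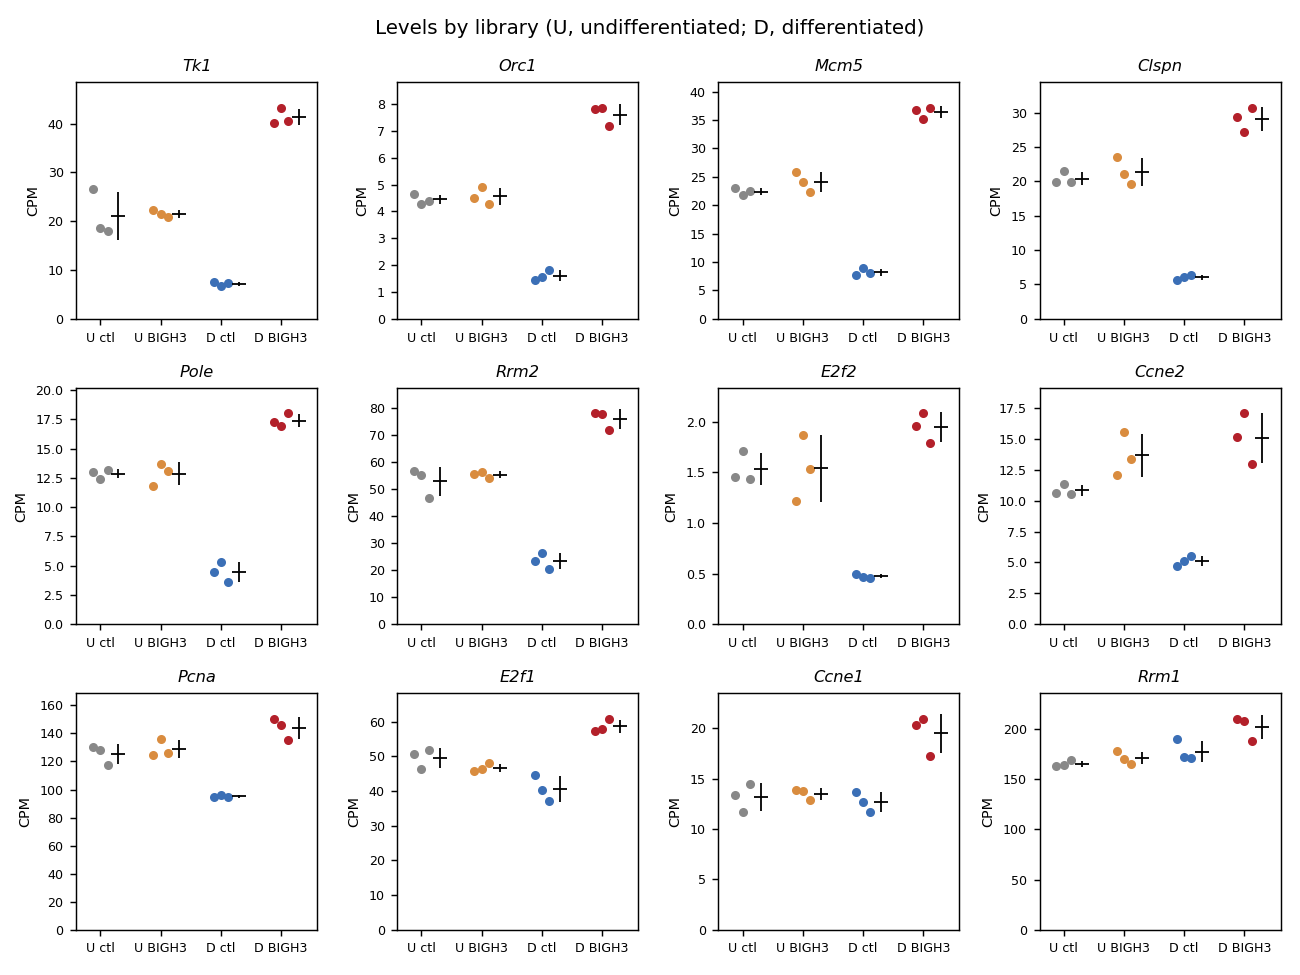
CPM (vertical axes, from 0) of 12 genes in each library (points, by group on the horizontal axes), with mean and SD beside them (n = 3). Tk1, Orc1, Mcm5, Clspn, Pole, Rrm2, E2f2 and Ccne2 have low differentiated controls, whereas those of Ccne1 (11.7 to 13.6 CPM) and Rrm1 (171 to 190 CPM) do not lie below the undifferentiated groups.

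In undifferentiated cells the log2 fold changes with BIGH3 ran from -0.15 (Pold1) to 0.33 (Ccne2). No member was called higher, beside 0.0068% of all genes, or lower, beside 0.0136%, with standard errors of 0.05 to 0.27, and no adjusted p-value was below 0.9999. At an unadjusted p below 0.05 there were 2 members, Ccne2 (0.33 ± 0.11) and Rfc3 (0.21 ± 0.08), and 599 of all genes. Ccne2 was the sole member with no overlap between the groups, beside 4.59% of all genes that lay higher without overlap.

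The interaction tests whether BIGH3 acted differently in the 2 states. For 46 members the effect was called larger in differentiated cells and for 0 smaller, beside 16.2% and 16% of all genes, with a median difference of 1.20 on the log2 scale. Tk1 had the largest difference (2.49 ± 0.17, adjusted p = 3.98e-09), and Rrm1 was not called (0.14 ± 0.08, adjusted p = 0.189). Without the 3 libraries with most liver transcripts, 45 were called larger, and Msh6 was not (adjusted p = 0.126). The Msh6 difference (0.28 ± 0.09, adjusted p = 0.0224) was also lost in all TPM fits and with length offsets (0.068 to 0.0931). Single libraries decided it too: it was lost without undifferentiated control 3 (0.0554), undifferentiated BIGH3 2 (0.0639), undifferentiated BIGH3 3 (0.061), differentiated control 2 (0.0916) or differentiated BIGH3 2 (0.0749). Gins1 was lost without differentiated BIGH3 1 (0.0653). Ccne1 was lost in all TPM fits and with length offsets (0.266 to 0.329), Rfc2 in TMM-scaled TPM (0.0761) and with length offsets (0.0813), and Chaf1a with length offsets (0.0522). Rfc2 was also lost when undifferentiated BIGH3 1 was left out together with the 3 libraries with most liver transcripts (0.0679).

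Differentiation without BIGH3 went with lower levels of these genes. This comparison, that of BIGH3 in differentiated cells and the interaction all use the same differentiated control libraries, so they are not independent results. In controls, 42 of the 47 were called lower in differentiated than in undifferentiated cells, beside 28.6% of all genes, and 0 higher, with a median log2 fold change of -0.95. E2f8 fell most (log2 fold change -2.29 ± 0.16), with 15.8 ± 1.37 CPM in undifferentiated and 3.23 ± 0.97 CPM in differentiated controls (SD, n = 3), followed by Clspn (-1.75 ± 0.09), Cdc6 (-1.70 ± 0.14) and E2f2 (-1.68 ± 0.30). The 5 members not called were Rfc2 (-0.14 ± 0.08), Prim2 (-0.09 ± 0.07), Ccne1 (-0.06 ± 0.10), Rrm1 (0.10 ± 0.05) and Ung (0.19 ± 0.13). Rfc2 and Prim2 were called lower with library totals or in TPM without scaling between libraries (adjusted p = 0.000688 to 0.00366), and Rfc2 also without undifferentiated control 3 (0.0235). The falls of Gins3 (-0.36 ± 0.14) and Chaf1b (-0.32 ± 0.12) were not called without the 3 libraries with most liver transcripts (adjusted p = 0.179 and 0.191). Single libraries also decided them: Gins3 was lost without undifferentiated control 3 (0.108), differentiated control 2 (0.150) or differentiated control 3 (0.0863), and Chaf1b without undifferentiated control 2 (0.101) or differentiated control 2 (0.111). DESeq2 called neither Gins3 (0.0831) nor Chaf1b (0.0511), and an edgeR fit of the compared groups alone did not call Gins3 (0.0546). With length offsets and in TMM-scaled TPM, the falls of Gins3 (0.172 and 0.143) and of Gins2 (0.0744 and 0.0742) were not called.

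The differentiated BIGH3 cells can also be set beside the undifferentiated controls, a comparison that shares its control and treated libraries with those above. Here 31 members were called higher and 4 lower, beside 29% and 27.5% of all genes, with a median log2 fold change of 0.40. The highest were Tk1 (0.98 ± 0.11), Fen1 (0.85 ± 0.08), Chaf1b (0.82 ± 0.11) and Orc1 (0.78 ± 0.14), and the 4 lower were E2f8 (-0.44 ± 0.14), Pold1 (-0.30 ± 0.11), Prim1 (-0.27 ± 0.10) and Pola2 (-0.25 ± 0.07). These calls count all transcripts, and coding transcripts alone were not tested here. The protein-coding share of reads was 53.1% in undifferentiated controls and 70.0% in differentiated BIGH3 cells for Prim1. It was 83.9% and 92.6% for Pola2, 88.9% and 95.7% for Pold1, and 98.9% and 99.2% for E2f8. Single libraries ended 2 of the lower calls: Prim1 was lost without undifferentiated control 1 (adjusted p = 0.119), undifferentiated control 2 (0.142) or differentiated BIGH3 1 (0.0887), and Pold1 without undifferentiated control 3 (0.0829) or differentiated BIGH3 2 (0.0554). Without the 3 libraries with most liver transcripts, E2f8 (0.104) and Prim1 (0.147) were not called. The counts also changed with scaling: in TPM without scaling between libraries 10 to 11 were called higher and 13 lower, and the median of all genes then lay at -0.22 to -0.27. Relative to that median the members' median was 0.26 to 0.33, against 0.40 by edgeR. Shares of all genes called were not counted in TPM, either here or between states with BIGH3, so those counts have no background beside them. The sign in TPM was opposite to that by edgeR for 15 members, 6 of them called higher by edgeR (Mcm4, Pcna, Rfc2, Prim2, Rrm1 and E2f1). Under BIGH3 in both states, 26 members were called higher in differentiated cells and 3 lower (E2f8, Prim1 and Pola2), beside 28.9% and 27.7%, with a median of 0.32, and 10 to 11 higher and 9 lower in TPM without that scaling. The protein-coding share of reads was 57.9% in undifferentiated and 70.0% in differentiated BIGH3 cells for Prim1. It was 87.0% and 92.6% for Pola2, and 99.4% and 99.2% for E2f8. Here 12 members had the opposite sign in TPM, of which Pcna and Rfc2 were called higher by edgeR. Without differentiated BIGH3 1, or without the 3 libraries with most liver transcripts, 1 was lower. Without undifferentiated BIGH3 2, E2f8 (adjusted p = 0.0515) and Prim1 (0.101) were not called, and Pola2 was lost without undifferentiated BIGH3 1 (0.221) or any 1 of the differentiated BIGH3 libraries (0.0608 to 0.0764).

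Other measures were compared in the same contrast of differentiated cells, and the part in the result of those that moved was not tested. All 10 tested osteocyte markers were called, 4 higher and 6 lower, with Dmp1 at 1.21 ± 0.07, Gja1 at 0.80 ± 0.05 and Phex at -1.81 ± 0.08, and the 13 markers summed to 2728 to 3069 CPM in controls and 2493 to 2777 CPM with BIGH3. The summed hepatocyte markers were at 9.38, 52.3 and 10.9 CPM in controls and 25.0, 26.1 and 78.1 CPM with BIGH3. Of 10 tested hepatocyte markers, 1 was called higher and 0 lower. Albumin stayed below 1 CPM and Serpina1a had no read in any library. Without the 3 libraries with most liver transcripts, 47 members were called higher with a median of 1.25. The 7 macrophage markers summed to 53.2 to 57.8 and 57.5 to 68.4 CPM, mostly Lyz2 and Cd14, with Csf1r, Adgre1 and Itgam below 1 CPM. Of the 4 tested, 1 was called higher and 1 lower, with log2 fold changes from -0.28 (Lyz2) to 1.93 (Cd14). The 5 endothelial markers summed to 5.72 to 6.04 and 4.37 to 4.70 CPM with Kdr below 1 CPM, and the 10 erythroid markers to 1.51 to 2.73 and 1.497 to 2.69 CPM with Gata1 and Alas2 at 0. Of the 3 endothelial markers tested, 1 was called higher and 1 lower, from -1.29 (Tek) to 1.15 (Cdh5). Transcripts annotated as retained introns held 1.89% to 2.08% of reads in differentiated controls and 2.26% to 2.44% with BIGH3, and mitochondrial transcripts 7.72% to 11.1% and 8.48% to 9.43%.

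Neighbouring genes were also looked at, since the sources used here do not say whether reads were counted by strand. Of the 47 members, 14 overlap a tested gene on the opposite strand, and 10 of the 15 partners had more reads than the member. The partners' log2 fold changes with BIGH3 in differentiated cells ran from -0.36 (Ints8, across from Ccne2) to 1.24 (Afmid), with 1 called higher and 6 lower. Eif4a2, across from Rfc4, carried 137643 reads against 2084 and had -0.28. The median over the 33 members that overlap no tested gene was 1.21. Counting protein-coding transcripts alone, the log2 ratio of mean TPM, differentiated BIGH3 to differentiated control, had a median of 1.20 over the 47 members.

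Lists of neighbouring function moved with them to different extents. Of 58 gene identifiers for other replication genes, 41 were called higher and 2 lower with BIGH3 in differentiated cells, beside 22.6% and 22.9% of all genes, with a median of 0.46. Hells, a chromatin remodeller (1.74 ± 0.07), Timeless, of the fork protection complex (2.01 ± 0.12), Exo1, an exonuclease (2.27 ± 0.13), and Dbf4, the activator of the kinase CDC7 (1.31 ± 0.08), had the smallest adjusted p. The 2 lower were Samhd1, which degrades deoxynucleotides (-0.51 ± 0.05), and Rrm2b, the p53-inducible reductase subunit (-0.33 ± 0.08). Both act on the nucleotide pool, and they fell while Rrm2, Tyms and Tk1 rose.

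Of 26 tested G1/S control genes outside the members, 15 were called higher and 1 lower, beside the same shares of all genes, with a median of 0.25. Ccna2, encoding cyclin A2, rose by 1.61 ± 0.06, Cdk6, a G1 kinase, by 0.84 ± 0.07, Rbl1, the pocket protein p107, by 0.90 ± 0.08 and E2f7, a repressor related to E2f8, by 2.07 ± 0.18. The gene called lower was Cdkn2c, the CDK4 and CDK6 inhibitor p18 (-0.44 ± 0.05, adjusted p = 8.72e-07).

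Of 35 mitosis genes, 34 were called higher and 1 lower, beside the same shares, with a median of 2.07 against 1.22 for the replication and G1/S genes. Cenpf and Cenpe, of the kinetochore, rose by 2.44 ± 0.07 and 2.01 ± 0.06, Top2a, which untangles sister chromatids, by 2.01 ± 0.06 and Anln, of the cleavage furrow, by 2.09 ± 0.07. Pttg1, encoding securin, was the gene called lower (-0.21 ± 0.08, adjusted p = 0.0364). Per library, the median level of the mitosis genes lay at -1.89 to -1.76 (log2, relative to undifferentiated controls) in differentiated controls and at 0.16 to 0.33 with BIGH3, against -1.003 to -0.88 and 0.22 to 0.39 for the members. The lists thus lay apart in differentiated controls and overlapped in differentiated BIGH3 libraries. In undifferentiated cells none of the genes of these 3 lists was called with BIGH3 by edgeR, and 4 had an unadjusted p below 0.05.

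**Figure D4:**
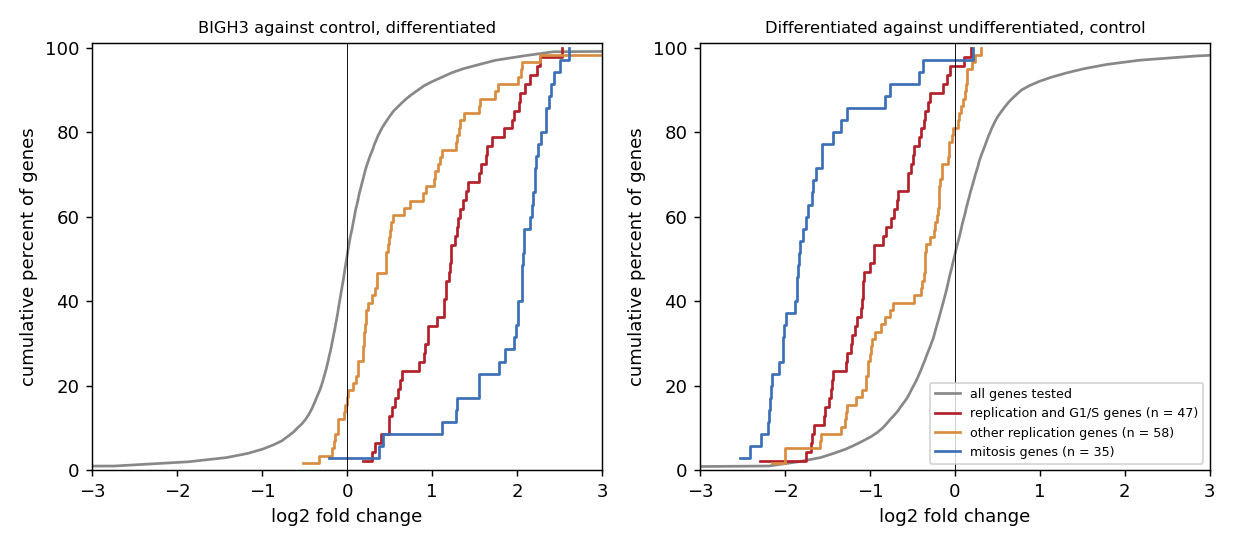
Cumulative percent of genes (vertical axis) against log2 fold change (horizontal axis) with BIGH3 in differentiated cells (left) and between states in controls (right), for all genes tested and 3 lists. The member curve lies right of all genes on the left (median 1.22 against -0.01) and left of them on the right (-0.95 against -0.01).

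The promoter windows were then searched across the members. RefSeq windows were matched for 39 of the 47 by symbol, and for the 5 genes with several windows the one nearest to the start of the most abundant coding transcript was used. An E2F word stood in 16 of 39 windows (41.0%) against 2.26% of 32851 windows of the same length, and a CCAAT box in 64.1% against 37.4%. The E2F word stood in 25.0% of windows of the G1/S control genes, 20.4% of the other replication genes and 10.0% of the mitosis genes. For the CCAAT box these shares were 34.4%, 40.7% and 80.0%, so the mitosis genes exceeded the members. The members' windows were richer in G and C (median 61.3% against 52.7%). Among windows with 55% to 75% G and C, the E2F share was 46.7% of 30 member windows and 4.00% of all 13062. These 30 windows belong to 27 members, with every window of a gene counted, and are not a subset of the 39. The CHR element (TTTGAA), a site of late cell cycle genes, stood in 12.8% of member windows, 17.9% of all and 70.0% of the mitosis genes' windows. Among windows with 55% to 75% G and C the order of the first 2 shares was the other way, with 13.3% of the same 30 member windows and 8.29% of all. The remaining motif, the TATA box (TATAAA), stood in 5.13% of member windows and 13.6% of all. Of 45 CCAAT boxes in members, 32 lay within 100 bases before the start. The median log2 fold change with BIGH3 in differentiated cells was 1.19 for the 16 members with an E2F word and 1.21 for the 23 without. A match is a description of letters, not of binding.

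**Figure D5:**
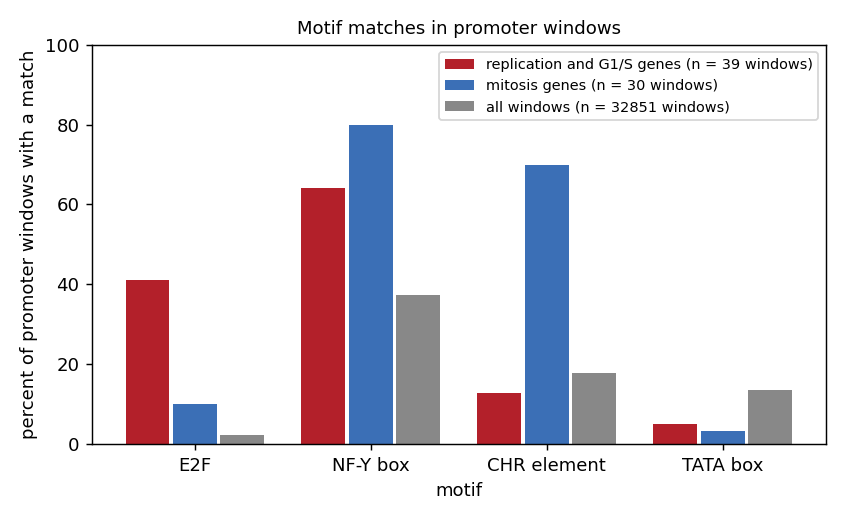
Percent of promoter windows (vertical axis, from 0) with at least 1 match to each motif (horizontal axis) for the replication and G1/S genes (39 windows), the mitosis genes (30 windows) and all windows (32851). The E2F bar is 41.0% for the members and 2.26% for all windows, and the CHR bar is 70.0% for the mitosis genes.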

How the data were processed

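RNA of 12 libraries in 4 groups of 3 was sequenced. Per the submitters' processing notes, the tools were Salmon, StringTie, cutadapt and FastQC with build mm10; versions and annotation release are not given in the sources used here. Each deposited table lists, per the file headers, expected counts per transcript (estimated reads that need not be whole), TPM, which the authors' quantification normalises for effective length, and lengths. File names carry a prefix other than the label MLO-Y4, and which line was grown was not tested.

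Transcripts were matched by identifier, without version, to GENCODE M21 on GRCm38. Of 147828, 137063 (92.7%) matched, and the rest, with 1.28% to 3.67% of reads per library, were left out. Expected counts were summed per gene, rounded, filtered with filterByExpr and scaled by TMM. They were fitted with edgeR 4.0.16 (quasi-likelihood, robust, 12 libraries, 1 term per group, 8 residual degrees of freedom, two-sided), with Benjamini-Hochberg adjustment over 14711 genes and calls at 0.05. Standard errors are the absolute log2 fold change divided by the root of the F statistic. The fit was tested on simulated data, drawn under the model it assumes and with few genes changed. Changes as broad as those seen here were not covered. Alternatives were DESeq2 1.42.0, limma 3.58.1 on log2(TPM + 1) and log2(TPM + 0.1), other scalings, filters and length offsets, a replicate block, and left-out libraries. TMM-scaled TPM was added after seeing the data. No genome sequence was read, and promoters came from a RefSeq table.

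The members and lists were chosen with earlier results of these data known. Values in every library are given for the highest and lowest member of each role by its change with BIGH3 in differentiated cells, and always for Mcm5, Pcna, Rrm2, E2f1, Ccne1 and Ccne2. From other lists, up to 4 genes with the smallest adjusted p and those called against their list are named.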

Additional observations from a re-analysis of the deposited data

Results flagged for a closer look

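The effect of BIGH3 differed between the states by the interaction test for 17 of the 18 genes given with all library values. Of all genes, 16.2% were called larger in differentiated cells and 16% smaller. Most of the 18 were picked by their change with BIGH3 in differentiated cells, so this count is not independent of that change. The value is the log2 fold change in differentiated minus that in undifferentiated cells, called by edgeR at an adjusted p below 0.05. Among these 18 it was largest for Tk1 (2.49), Orc1 (2.20), Clspn (2.20), Mcm5 (2.05), E2f2 (2.02) and Pole (1.97). Rrm2 (1.64), Uhrf1 (1.38) and Ccne2 (1.22) followed. The smaller differences were those of Gins1 (0.74), E2f1 (0.62), Ccne1 (0.59), Pcna (0.56), Slbp (0.49), Orc6 (0.39), Prim2 (0.32) and Msh6 (0.28). Rrm1, with 0.14, was not called. The calls of Ccne1 and Msh6 were lost in TPM and with length offsets, that of Msh6 also without any 1 of 5 libraries, and that of Gins1 without differentiated BIGH3 1.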

How the results depend on the processing

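Changes with BIGH3 in differentiated cells, the interaction, and the lack of calls in undifferentiated cells held in direction in every alternative run, although the small median of undifferentiated cells changed sign in TPM, where 20 of the 47 members also did, none of them called. In differentiated cells 45 to 47 members were called higher, with a median of 1.11 (log2(TPM + 1)) to 1.29 (without differentiated BIGH3 replicate 3), and 1.19 to 1.29 over left-out libraries. The interaction was called for 42 to 46, with medians of 1.10 (log2(TPM + 1)), 1.09 (TMM-scaled TPM) and 1.09 (length offsets). In undifferentiated cells 0 were called throughout, and the median was -0.045 and -0.045 in TPM with 1 and 0.1 added. Between the states in controls 40 to 44 were called lower, with a median of -1.10 (library totals), -1.23 (log2(TPM + 0.1)) and -1.04 without the 3 libraries with most liver transcripts, and the same when undifferentiated BIGH3 1 was left out as well (4 libraries). Rrm1 and Ung, not called, changed sign in TPM there.

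Comparisons of differentiated BIGH3 cells with undifferentiated cells depended on scaling. Against undifferentiated BIGH3 cells, library totals called 6 lower (median 0.21), TPM with 1 added 11 higher and 9 lower (0.064) and with 0.1 added 10 and 9 (0.097). TMM-scaled TPM and leaving out those 3 or 4 libraries each called 1 lower, and left-out libraries 1 to 4 (1 without differentiated BIGH3 replicate 1). Against undifferentiated controls, the median was 0.27 (library totals), 0.038 and 0.065 (TPM with 1 and 0.1 added) and 0.30 (TMM-scaled TPM). TPM called 11 or 10 higher and 13 lower, TMM-scaled TPM 1 lower, length offsets 2 and leaving out those 3 or 4 libraries 2. The cause was not tested, and shares of all genes called were counted for the main fit only. Single genes were followed here only where the report gives all library values, a lower call or a highest value. Among these, values reversed against undifferentiated BIGH3 cells in TPM (1 and 0.1 added) for Orc6 (-0.21 and -0.21), Pcna (-0.18 and -0.18) and Slbp (-0.20 and -0.21). Against undifferentiated controls they reversed for Orc6 (-0.27 and -0.28), Pcna (-0.18 and -0.18), Prim2 (-0.034 and -0.034), Rrm1 (-0.029 and -0.029), Uhrf1 (-0.25 and -0.26), Slbp (-0.25 and -0.25) and E2f1 (-0.019 and -0.020). Over all 47 members, the sign in TPM was opposite for 12 and 15.

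No label says whether replicate numbers pair the libraries. Same-numbered libraries had correlations of -0.22 to 0.35 in their deviations, and differently numbered libraries of -0.31 to 0.33, which does not settle the pairing. With a replicate block 47 were called higher in differentiated cells (median 1.21), 46 in the interaction and 42 lower between states in controls, and 27 higher instead of 26 between states with BIGH3. It moved no other count. Depth limits E2f2, with 10 to 43 reads per library.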

Other observations

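For some of these genes much of the signal lay on transcripts annotated as retained introns. For Prim1, the catalytic primase subunit, that share of the gene's reads was 39.6% to 52.4% in undifferentiated libraries and 25.5% to 34.0% in differentiated ones. Rfc5, a clamp loader subunit, had 37.3% to 55.4% and 22.0% to 33.5%, and for both genes the states did not overlap. Rfc2, of the same complex, had 67.5% to 74.7% and 53.7% to 74.7%, which overlap. Over the whole library, such transcripts held 2.82% to 3.28% of reads in undifferentiated and 1.89% to 2.44% in differentiated libraries, so the share moved in the same direction as for Prim1 and Rfc5. Tyms had 37.6% to 46.2% of its reads on protein-coding transcripts in undifferentiated libraries and 43.1% to 57.6% in differentiated ones. Salmon divides reads between transcripts by a model, and these shares were not tested.

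Counting protein-coding transcripts alone, the mean TPM with and without BIGH3 in differentiated cells was 18.4 and 8.20 for Prim1, 7.89 and 3.44 for Rfc5, 2.79 and 1.60 for Rfc2 and 10.2 and 4.48 for Tyms.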
